A study of Mus musculus with 6 samples.

Results

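The 460 chromatin sites described here lost ATAC-seq signal with both latrunculin A and MCSF in IL-4-treated mouse macrophages and did not gain it with IL-4 in both IL-4 comparisons. They were selected on the deposited signal. A site on chromosomes 1 to 19 was tested if its mean signal over the 6 libraries was at least 3.2 CPM, which here are reads scaled to library size with TMM, a normalization between libraries. It became a member if the signal, with 0.1 added, was at least 1.5-fold lower with latrunculin A (LatA + IL-4 relative to DMSO + IL-4) and also with MCSF (MCSF + IL-4 relative to IL-4). These are called the latrunculin A and the MCSF comparison. A further 31 sites met both conditions but rose at least 1.5-fold under IL-4 in both pairs, without and with vehicle, and were left out. The members are thus 460 of 491 sites that closed with both treatments, of 33476 tested sites and of 578591 sites in the whole table. Because these ratios chose the members, they are given as a description, and the same holds for peak calls and other measures made from the same reads.

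ATAC-seq uses a transposase that cuts DNA where nucleosomes and other proteins leave it exposed, so that reads pile up at promoters, enhancers and other open chromatin. In macrophages, IL-4 acts through the transcription factor STAT6 and turns on the genes of alternative activation. MCSF (CSF1) is the growth factor on which bone marrow-derived macrophages depend, and it spreads the cells. Latrunculin A binds actin monomers and blocks their assembly into filaments. Comparing sites that close with both agents addresses the question of whether the state of the cytoskeleton is reflected in chromatin.

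All 6 libraries came from wild-type BMDMs of strain C57BL/6 (C57BL/6J in the growth protocol) grown in medium conditioned by L929 cells, a source of MCSF that every group therefore received during differentiation. The groups were Untreated, IL-4 (20 ng/ml for 24 hours), DMSO (the vehicle alone), DMSO + IL-4, LatA + IL-4 (latrunculin A at 1 μM) and MCSF + IL-4 (MCSF at 100 ng/ml), with 1 library in each. Without replicates every ratio compares 2 libraries rather than 2 conditions and has no replicate check. Libraries of either agent without IL-4 are not analysed here. Depth ranged from 12387332 reads in sites (DMSO + IL-4) to 19889902 (Untreated). Sites are named by mm9 position. The reference genome at hand is of another build, so the genes near members, their sequence motifs and the marker genes of macrophages are not analysed here.

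Across all tested sites the typical change went the other way. The median log2 ratio over the 33476 tested sites was 0.54 in the latrunculin A comparison, with 45.9% of the sites at least 1.5-fold higher and 5.24% at least 1.5-fold lower. In the MCSF comparison it was 0.55, with 47.1% higher and 4.92% lower. Sites lower in both made up 1.47% of those tested. The members therefore stood at the edge of the tested sites, whose centre was higher in both treated libraries. The 500591 weaker sites on these chromosomes, which were not tested, had medians of -0.01 in both. Both treated libraries also had the highest median fold enrichment of peaks at tested sites, 12.7 with latrunculin A and 11.5 with MCSF, where the values were 9.29 to 10.6 in the other libraries. The part of this difference between libraries in the closing of members was not tested.

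**Figure D1:**
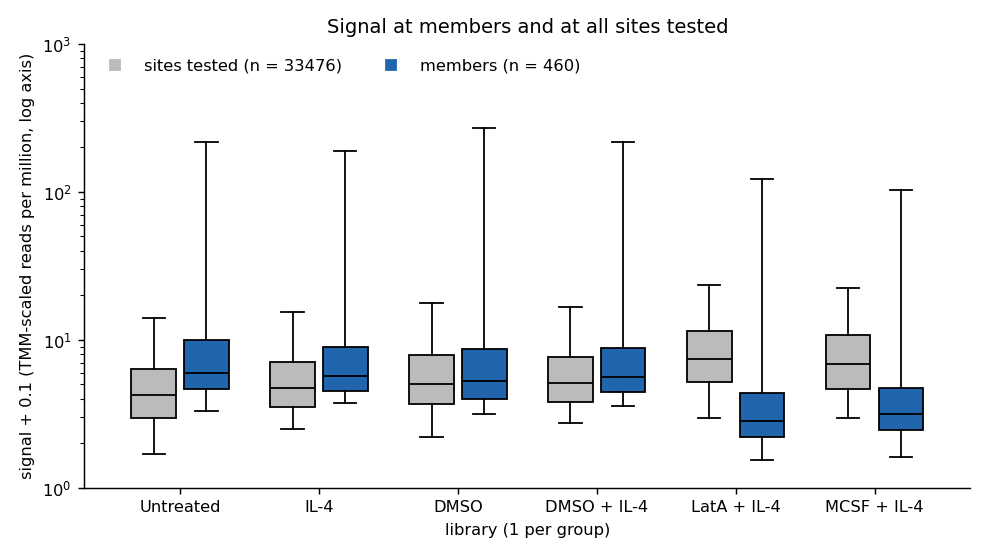
Box plots of signal plus 0.1 (TMM-scaled CPM, log axis) in each library, at all 33476 tested sites and at the 460 members, with the median as the line, the quartiles as the box and the 5th and 95th percentiles as whiskers. In both treated libraries the members' median lies below that of the tested sites, and in the other 4 it lies above.

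The members had slightly more signal than the tested sites in the 4 libraries without a treatment and much less in the treated pair. Their median signal was 5.89 in Untreated and 5.16 in DMSO, and with IL-4 it was 5.60 (no vehicle) and 5.53 (vehicle). It was 2.73 with latrunculin A and 3.04 with MCSF. The tested sites went from medians of 4.12 to 4.97 in the libraries without a treatment to 7.31 and 6.75 in the treated ones. As a share of all signal in the table, the members held 2.69% to 3.13% in the 4 libraries without a treatment, 1.40% with latrunculin A and 1.44% with MCSF. The 4 strongest members alone held 47.3% to 50.9% of the members' signal in each library. The box plots of signal by library show this drop beside the opposite shift of the tested sites.

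The fall at a typical member was just under 2-fold. The median log2 ratio over members was -0.90 with latrunculin A (a 1.87-fold fall) and -0.81 with MCSF (a 1.75-fold fall). With latrunculin A 179 members were at least 2-fold lower (1.67% of tested sites), and with MCSF 118 were (1.31% of tested sites). With 0.1 added to the signal, both falls reached 2-fold at 54 members, or 11.7%, 2.5-fold at 16 and 3-fold at 3. Of tested sites 0.185%, 0.0627% and 0.0179% passed these folds in both. The rule used these ratios, and nothing is read from the counts. The rule required both ratios to be low, so intervals below 1 are mostly fixed by it. The exact 95% interval of the read ratio lay below 1 in both comparisons at 436 members (94.8%). It lay wholly past 1.5-fold in both at 66 (14.3%), so for most members the size of the fall relative to the threshold was not settled at this depth. Such intervals reflect the number of reads alone. The study removed duplicate reads, but reads were not tagged by molecule, so they may not all be independent molecules. Variation between cultures is left out. An additive model of IL-4, DMSO, latrunculin A and MCSF, fitted with edgeR to the recovered reads of all tested sites, has 1 residual degree of freedom, which measures only how far IL-4 and DMSO fail to add up. At an adjusted p under 0.05 (edgeR quasi-likelihood test) it placed 262 members lower with latrunculin A, 312 with MCSF, 198 (43.0%) with both and 84 with neither. Of tested sites 2.49%, 2.47% and 0.726% were lower with latrunculin A, MCSF and both. As the same reads chose the members, nothing is read from these counts.

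At most members the treated libraries lay below the resting cells as well as below the IL-4-treated ones. Both treated libraries were below all 4 others at 419 members (91.1%), against 6.07% of tested sites. Against DMSO without IL-4, LatA + IL-4 was at least 1.5-fold lower at 358 members (77.8%) and higher at 3, where 5.76% and 41.3% of tested sites were lower and higher. Against Untreated, MCSF + IL-4 was lower at 373 members (81.1%) and higher at 5, where 5.13% and 55.5% of tested sites were. Both of these falls occurred at 301 members (65.4%), against 2.35% of tested sites. These ratios reuse the treated libraries that chose the members, so the counts carry that choice. The 31 IL-4-induced sites that closed with both treatments were chosen for a low resting value relative to IL-4, so the comparison with them is a description. Their median log2 ratio to the resting library was 0.22 for LatA + IL-4 and 0.20 for MCSF + IL-4, which places them near the resting level, whereas both medians over the members were -0.94.

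The latrunculin A and MCSF libraries differed at members about as often as at other sites. LatA + IL-4 against MCSF + IL-4 had a median log2 ratio of -0.11 over members and 0.11 over tested sites. It was at least 1.5-fold higher at 26 members (5.65%) and lower at 62 (13.5%), where 12.6% and 7.57% of tested sites were higher and lower. Selection of members for a low value in both libraries narrows this ratio by construction.

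**Figure D2:**
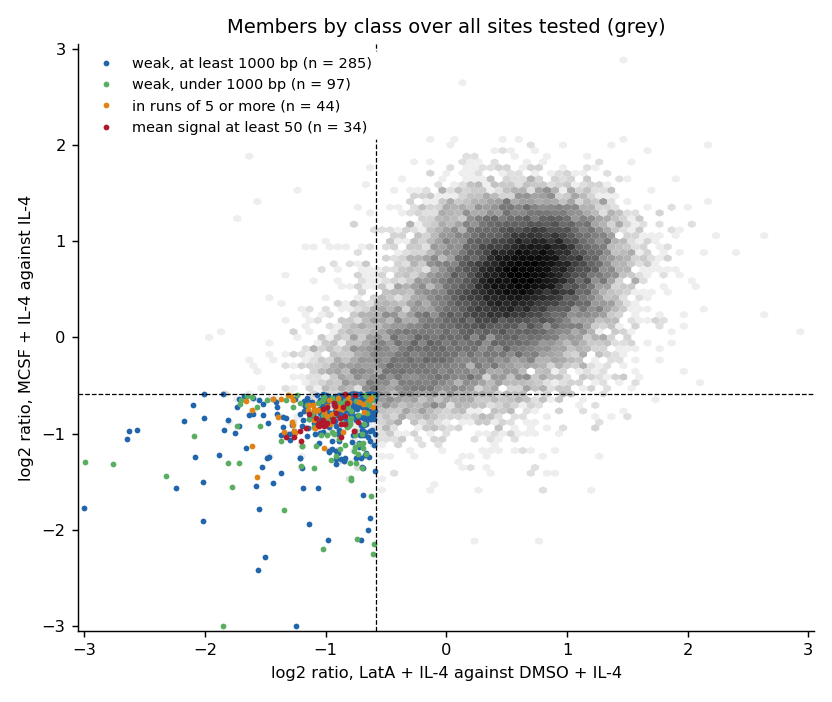
Log2 ratio in the MCSF comparison (vertical) plotted against that in the latrunculin A comparison (horizontal) for members, coloured by class, over the density of all tested sites in grey, with dashed lines at 1.5-fold lower and values beyond 3 units drawn at the edge. The 34 strong members form a tight group near 2-fold lower on the horizontal axis, while weak members spread along both axes.

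Members differed little between the IL-4 libraries and their resting controls. The rule bars members that rise in both IL-4 pairs. It also takes members that are high in IL-4 and DMSO + IL-4 relative to the treated libraries, so the counts below carry that choice. IL-4 against Untreated had a median log2 ratio of -0.12, with 24 members at least 1.5-fold higher and 25 lower, against 22.5% and 5.46% of tested sites. DMSO + IL-4 against DMSO had a median of 0.03, with 43 members higher and 16 lower, against 13.9% and 10.2%. In both pairs 361 members (78.5%) stayed within 1.5-fold, against 61.7% of tested sites. A rise in 1 pair alone was seen at 67 members (14.6%), against 15.3% of tested sites. With the other pair within 1.5-fold, it was in the pair without vehicle at 22 (4.78%, against 11.3%) and in the DMSO pair at 39 (8.48%, against 3.04%). At 6 the other pair fell (1.30%, against 0.917%).

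Relative to Untreated, DMSO alone was lower at members than at other sites. DMSO against Untreated had a median log2 ratio of -0.16 over members and 0.33 over tested sites. It was at least 1.5-fold higher at 20 members and lower at 57 (12.4%), whereas 17% of tested sites were higher and 2.05% lower. In the presence of IL-4 the members' difference was smaller. DMSO + IL-4 against IL-4 had a median of -0.02 over members and 0.12 over tested sites. It was higher at 25 members and lower at 24, against 5.95% and 3.23% of tested sites. The DMSO comparison uses none of the libraries in which members had to be low, although its libraries enter the mean signal and the IL-4 condition of the rule.

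The 4 libraries without a treatment give the only view of how far a member varies without latrunculin A or MCSF. They differ in IL-4 and vehicle and are not replicates. The highest of them exceeded the lowest by a median of 1.41-fold at members and 1.57-fold at tested sites. At 285 members (62.0%) all 4 lay within 1.5-fold of each other, against 42.2% of tested sites. At 54 (11.7%) they spread over at least 2-fold, against 20.7%. All 4 enter the rule, which bars rises in both IL-4 pairs and takes members that are high in the IL-4 libraries. These shares carry that choice. With the control libraries crossed, LatA + IL-4 was set against IL-4 and MCSF + IL-4 against DMSO + IL-4, and 288 of the 460 still met the rule. Crossing reuses the treated and IL-4 libraries that chose the members, so this overlap carries that choice as well.

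The members fell into 4 classes, which were defined after their values were seen. There were 34 strong sites with a mean signal of at least 50, 44 weaker sites in runs of at least 5 members spaced by at most 100 kb, 285 weak sites at least 1000 bp wide and 97 weak narrower sites. The wide weak sites were the bulk by number (62.0%). The strong sites were the bulk by signal, with 87.9% to 90.5% of the members' summed signal in each library. The classes also differed in width, spacing and how evenly their sites fell.

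The strong members were short sites of very high signal. Their median width was 256 bp (197 to 626 bp), and their mean signal ranged from 61.5 to 5240 with a median of 279. That is a median of 1071 units per kb of site. They lay on 16 chromosomes. Of the 34, 11 had another strong member within 2 kb, and 5 began within the first 5 Mb of their chromosome's coordinates, a share of 14.7% that is close to the 15.0% of all 354 tested sites of this strength.

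The highest of all was chr12:3109804-3110187, a 384-bp site. Its signal was 6484 in Untreated and 6926 in DMSO, 5655 and 5436 in the matching IL-4 libraries, 3216 in the latrunculin A library and 3722 in the MCSF library. The treated libraries lay under the other 4. Against their own controls the falls were 1.69-fold (1.67 to 1.71) with latrunculin A and 1.52-fold (1.503 to 1.536) with MCSF, the second barely past the threshold. With 47076 to 135294 reads per library, counting error was negligible there.

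The next in signal, chr5:85047284-85047628, held 3904 in Untreated and 4773 in DMSO, and 3724 and 4184 in the matching IL-4 libraries. It held 2022 with latrunculin A, a 2.07-fold fall (2.04 to 2.10), and 1999 with MCSF, a 1.86-fold fall (1.84 to 1.89). The site chr18:3638796-3639226 ran from 1939 to 2395 in the same 4 libraries and fell to 1056 and 1107, which is 2.07-fold (2.03 to 2.11) and 1.87-fold (1.83 to 1.90). These 2 sites, on different chromosomes, had nearly the same pair of falls. At chr3:6049090-6049498 the 4 libraries gave 1283 to 1614 and the treated ones 614 and 654, falls of 2.32-fold (2.27 to 2.38) and 1.96-fold (1.91 to 2.01). At each of these 4 sites the treated libraries lay below all the others.

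The strong members fell within a narrow band. With latrunculin A their log2 ratios ran from -1.33 to -0.73 with an SD of 0.15, and with MCSF from -1.08 to -0.59 with an SD of 0.12 (n = 34 sites). The median counting SE of a single site was 0.04 in both, so the sites did differ from each other by more than counting error. The rule cuts this band off at 1.5-fold, which narrows it. All 34 were below all 4 other libraries, and none spread over 2-fold among those 4. In the IL-4 and DMSO comparisons among those 4 libraries, which also enter the rule, they stayed within 1.5-fold. All 4 libraries lay within 1.5-fold of each other at 27 of the 34 (79.4%), against 42.2% of tested sites. All 34 were higher in DMSO than in Untreated (0.08 to 0.44, median 0.28), and 31 were lower in DMSO + IL-4 than in DMSO (median -0.25). The 320 other tested sites of the same strength had medians of 0.32 and -0.06 in these comparisons, so the rise in DMSO was general. With latrunculin A and MCSF those 320 had medians of 0.18 and 0.26. Lower values were common among the strongest sites all the same. Of the 203 tested sites with a mean signal of at least 100, members included, 21.7% were at least 1.5-fold lower with latrunculin A and 14.3% with MCSF, and 28 (13.8%) were members. The study's aligner was allowed to report a read at several places, and how many reads of these sites were so reported is not known from the table.

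In the 4 runs members lay close together, and most of their tested neighbours were below 0 in both comparisons. The largest, chr7:66927902-67049659, spans 121758 bp and holds 21 members among 50 tested sites. Its members' summed signal was 192 in Untreated and 155 in DMSO, 145 and 146 in the matching IL-4 libraries, 77.0 with latrunculin A and 86.5 with MCSF. The summed log2 ratio was -0.93 with latrunculin A and -0.74 with MCSF. Of the 50 tested sites, 47 were below 0 in both comparisons, and the 29 that were no members had medians of -0.72 and -0.54. Of these 29, 18 were at least 1.5-fold lower with latrunculin A and 8 with MCSF. Most tested sites of the stretch were thus lower, members or not.

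The other runs behaved alike, apart from the last. At chr8:57976599-57999388, 13 members lie within 22790 bp, and 20 of 21 tested sites were below 0 in both comparisons. The members' summed signal was 114 to 136 in the 4 libraries without a treatment, 54.9 with latrunculin A and 71.4 with MCSF (log2 ratios -1.16 and -0.84). Before it on the same chromosome, chr8:56197020-56209019 holds 6 members in 12000 bp, and all 9 tested sites there were below 0 in both. The sums were 105 to 125, then 53.6 and 66.7 (log2 ratios -1.07 and -0.74). The pair of runs on chromosome 8 thus had closely similar ratios. The run at chr11:3002276-3086953 was looser, with 5 members, 1 of them strong, among 38 tested sites over 84678 bp, and 25 of the 38 below 0 in both.

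**Figure D3:**
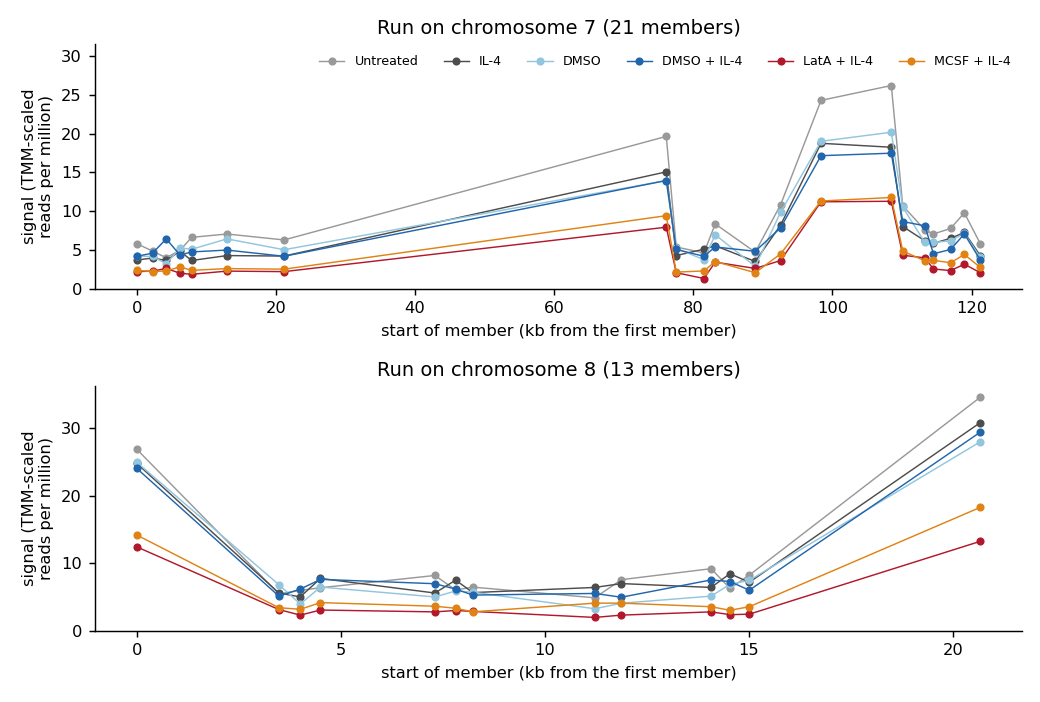
Signal (TMM-scaled CPM) of each member against its start in kb from the first member, for the run of 21 members on chromosome 7 (top) and the run of 13 on chromosome 8 (bottom), with 1 line per library. The LatA + IL-4 and MCSF + IL-4 lines lie below the other 4 along both runs, except at 2 members of the lower plot near 11 to 12 kb, where MCSF + IL-4 (4.10 at both) exceeds DMSO (3.27 and 4.08).

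Because of the runs, chromosomes 7 and 8 had more members than most. Of tested sites on chromosome 7, 49 of 2187 (2.24%) were members, and on chromosome 8, 39 of 1816 (2.15%). Without the runs the shares were 1.28% and 1.10%, near the 1.24% of all 19 chromosomes counted the same way. Chromosome 1, which has no run, kept 52 of 2549 (2.04%), and chromosome 11 had the lowest share with 13 members (0.709%). Outside the runs members were scattered. No other member lay within 100 kb of 360 of the 460 (78.3%), and 23 pairs and 3 triples made up the rest.

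The wide weak members were long, shallow stretches. Their median width was 1402 bp and their median mean signal 4.16, or 2.999 units per kb. The 8991 tested sites of at least 1000 bp and under 50 in signal held 4.04 units per kb. Wide weak members fell by medians of -0.87 with latrunculin A and -0.80 with MCSF on the log2 scale. Those 8991 sites had medians of 0.31 and 0.28. The SD among wide weak members was 0.46 and 0.36, against 0.15 and 0.12 among the strong members. Both treated libraries were below all 4 others at 252 of the 285 (88.4%).

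Width was not part of the rule, and members were wider or shorter than most tested sites. Of the 460, 291 (63.3%) were at least 1000 bp wide, against 27.1% of tested sites and 21.6% of the 9397 sites that opened with both treatments. Without the strong sites and the runs, the share was 285 of 382 (74.6%). The share depended on the signal threshold. It was 26.0% of 2700 sites when the rule took mean signals of at least 1.6 (16.7% of tested sites), and 44.4% of 126 at 6.4 or more (30.5%). At the other end, 61 members (13.3%) were under 300 bp, against 2.00% of tested sites. The middle range of 300 to under 1000 bp, which held 70.9% of tested sites, held 108 members (23.5%). The median width was 1221 bp for members and 745 bp for tested sites. Among the 31 IL-4-induced sites that closed, 18 (58.1%) were also at least 1000 bp wide and 1 was under 300 bp, with a median width of 1033 bp.

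Signal per kb of site gave the same picture. Under 4 units per kb lay 234 members (50.9%) and 14.8% of tested sites. Of tested sites with 2 to 3 units per kb, 136 of 2494 (5.45%) were members, and with 6 to 10 units per kb 0.406% were. At 50 units per kb or more the share was again high, with 46 of 541 (8.50%). All tested sites, members or not, followed the lower part of this pattern. Their median log2 ratio was -0.29 with latrunculin A and -0.24 with MCSF at 2 to 3 units per kb, 0.02 and -0.03 at 3 to 4, and 0.63 and 0.61 at 4 to 6. Members under 3 units per kb therefore lay in the part of the table where the typical site was lower in both treated libraries. Signal per kb and the ratios come from the same reads, and the part of signal per kb in the members' ratios was not tested.

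**Figure D4:**
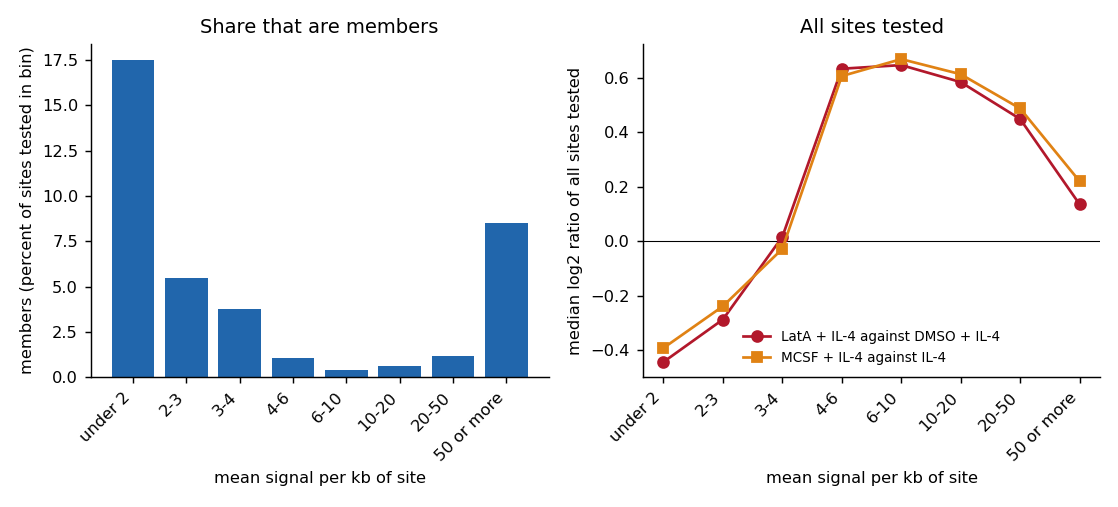
Left, members as a percent of tested sites in bins of mean signal per kb of site, with bars from 0. Right, the median log2 ratio of all tested sites in the same bins in the latrunculin A (circles) and MCSF (squares) comparisons, which passes from below 0 under 3 units per kb to above 0.60 at 4 to 10.

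The narrow weak members were closest to ordinary peaks in form, with a median width of 555 bp and 9.06 units per kb. Their median log2 ratios were -0.91 with latrunculin A and -0.91 with MCSF. They varied most among the 4 libraries without a treatment, by a median of 1.48-fold, and 51 of 97 (52.6%) kept those libraries within 1.5-fold of each other.

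The peak lists, called on each library, show the same losses in another form. A peak overlapped 96.7% of members in Untreated and 94.6% in DMSO, and 96.3% and 95.7% in the matching IL-4 libraries. It overlapped 68.5% with latrunculin A (exact 95% interval 64.0% to 72.7%) and 73.3% with MCSF (69.0% to 77.3%). Of tested sites, 97.6% to 98.7% had a peak in a given library. The part of a member covered by peaks fell further, from medians of 60.7% to 78.2% of its width in the 4 libraries without a treatment to 23.0% and 23.8% in the treated ones. In tested sites it rose, from 72.7% to 75.3% in those 4 to 84.1% and 81.8%.

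Loss of the peak altogether was confined to weak members. All 34 strong members kept a peak in all 6 libraries, with a median fold enrichment over local background of 53.8 to 56.2. Of the 44 sites in runs, 29 to 34 had a peak in the 4 libraries without a treatment, 14 had one with latrunculin A and 15 with MCSF. Of the 285 wide weak members, 278 to 285 had a peak in those 4 libraries, 193 with latrunculin A and 219 with MCSF. Peaks in all 4 libraries without a treatment and in neither treated one marked 43 members (9.35%), against 93 of the tested sites (0.278%). A peak in all 6 libraries was kept by 263 members (57.2%), against 92.5% of tested sites.

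Members with the deepest falls were weak sites, ranked here by the smaller of both falls with 0.1 added. The folds printed with intervals are ratios of reads with nothing added, which are larger at weak sites, so that all 8 of these sites pass 3-fold on that scale. The first, chr6:112174320-112177003, is 2684 bp wide. Its signal was 7.72 in Untreated and 4.08 in DMSO, 8.84 and 8.90 in the matching IL-4 libraries, 2.12 with latrunculin A and 2.28 with MCSF. The treated libraries were lowest, and DMSO alone lay between them and the other 3. The falls were 4.20-fold (2.80 to 6.48) with latrunculin A and 3.88-fold (2.60 to 5.97) with MCSF.

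The second, chr1:193881141-193881831, had 115 reads in Untreated and 193 in DMSO, 56 and 71 in the matching IL-4 libraries and 22 with latrunculin A. It had 0 reads with MCSF, which against a floor of 3 reads is at least 15.6-fold lower than IL-4 if the 56 reads there are taken as exact. The exact 95% interval, which covers the error of both libraries, starts at 12.3-fold. With latrunculin A it fell 3.79-fold (2.32 to 6.42). Its 4 libraries without a treatment already spread from 3.56 to 11.3 in signal. The third, chr5:104606387-104607526, had 1 read with latrunculin A and 14 with MCSF. Untreated and DMSO had 161 and 31, and the matching IL-4 libraries 61 and 74. The ratio with latrunculin A was 86.9-fold with a wide interval of 15.1 to 3476, and with MCSF it was 3.65-fold (2.02 to 7.07). A single library near 0 decided the size of both of these falls.

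The remaining 5 of the 8 largest falls were weak sites of similar or smaller width. At chr12:113785507-113786853 the falls were 5.23-fold (2.68 to 11.2) with latrunculin A and 3.04-fold (2.04 to 4.64) with MCSF. At chr13:112361881-112363002 they were 3.04-fold (2.02 to 4.66) and 5.80-fold (3.23 to 11.3). In this pair of sites 1 treatment went much lower than the other. At chr16:56808078-56808694 the falls were 3.57-fold (2.25 to 5.85) and 3.04-fold (1.97 to 4.85), and at chr5:61684057-61685344 3.09-fold (1.79 to 5.55) and 3.60-fold (2.20 to 6.19). The evenest was chr1:4549677-4550928, whose signal was 6.76 in Untreated and 5.77 in DMSO, and 5.72 and 4.89 in the matching IL-4 libraries. It was 1.57 with latrunculin A, a 3.11-fold fall (1.90 to 5.27), and 1.90 with MCSF, a 3.02-fold fall (1.92 to 4.91). Here the 4 libraries lay close together and well above the treated ones.

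Another 3 members fell with IL-4 in both pairs and again with both treatments. At chr18:23261612-23262937 the signal was 8.43 in Untreated and 8.63 in DMSO, 3.69 and 4.17 in the matching IL-4 libraries, and 2.12 and 1.59 with latrunculin A and MCSF. The 3 levels did not overlap. At chr9:101329819-101331160 it was 6.18 and 6.42 without IL-4, 3.18 and 2.57 with it, and 1.43 and 1.97 with the treatments. Its second step was less firm, as the interval of the MCSF fall, 0.984 to 2.70, included no change. The third of the kind is chr1:193881141-193881831, given above.

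The 3 largest rises with IL-4 in a single pair each had a low resting library in that pair. The IL-4 library of that pair was also above the IL-4 library of the other pair. At chr8:91712931-91714364 DMSO held 0.642 and DMSO + IL-4 8.58, a log2 ratio of 3.55, while Untreated (4.46) and IL-4 (4.39) differed by -0.02. At chr9:14839649-14840501 it was Untreated that was low, with 1.01 against 9.98 in IL-4 (log2 ratio 3.19), while DMSO and DMSO + IL-4 held 3.56 and 3.53. The pattern of chr1:153421726-153422283 was similar, with 1.20 in Untreated and 8.01 in IL-4 but 3.56 and 2.81 in the DMSO pair. At each site the rise was seen in 1 pair and not in the other. The pairs differ in the IL-4 library as well as in the resting one. DMSO + IL-4 against IL-4 had log2 ratios of 0.95, -1.47 and -1.48 at the 3 sites in this order. At the chr9 and chr1 sites MCSF + IL-4 held 3.11, which is above Untreated.

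The values at the thresholds ran on without a gap. Just inside 1.5-fold were chr17:12438055-12439947, chr18:67234490-67236137 and chr1:77986197-77987857, each with a log2 ratio of -0.59 with MCSF. Just outside were chr16:10631375-10632621, chr3:41989136-41990977 and chr12:68160078-68160948, each at -0.58, and the last of these has a mean signal of 219. By mean signal, chr10:23189452-23190560 (3.201), chr4:64115677-64116987 (3.202) and chr2:34969286-34969777 (3.205) were just inside. The sites chr2:104440797-104442182 (3.199), chr2:98269038-98270506 (3.18) and chr14:4026015-4026958 (3.18) were just outside.

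Tested sites beside members were lower as well. Within 2 kb of a member lay 120 tested sites that were no members. Their median log2 ratio was -0.50 (95% interval -0.61 to -0.42) with latrunculin A and -0.39 (-0.45 to -0.30) with MCSF. At least 1.5-fold lower were 42.5% and 18.3% of them. Without the runs, 72 such sites had medians of -0.45 and -0.36. The drop around members was short. At 2 to 10 kb, 106 sites had medians of 0.07 and 0.05, at 10 to 50 kb 445 sites had 0.41 and 0.38, and at 200 kb or more 30907 sites had 0.56 and 0.57.

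**Figure D5:**
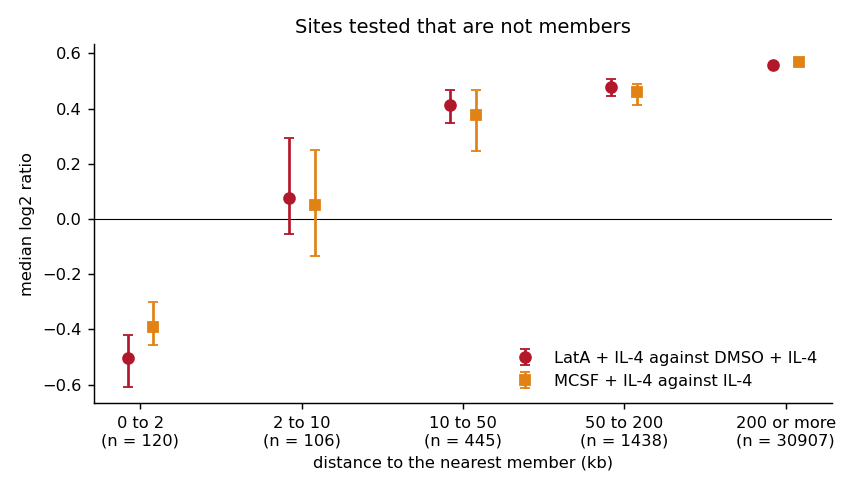
Median log2 ratio, with 95% order-statistic intervals, of tested sites that are not members in 5 ranges of distance to the nearest member, in the latrunculin A (circles) and MCSF (squares) comparisons. The medians lie below 0 within 2 kb, near 0 at 2 to 10 kb and above 0.30 beyond 10 kb.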

How the data were processed

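ATAC-seq of 6 libraries of mouse BMDMs, 1 per group, was sequenced in paired-end mode. Per the study's methods and the submitters' processing notes, reads were trimmed with Cutadapt, aligned to mm9 with Bowtie2 (several alignments per read allowed) and cleaned with Picard and BEDTools, with blacklisted and mitochondrial reads removed. MACS2 called the peaks and featureCounts counted reads at each site. The versions and the way sites of several libraries were merged are not given in the sources used here. In the deposited table the authors give a signal, CPM scaled by TMM factors from edgeR. All values were multiples of a column's smallest step within 0.1 read, so whole reads were recovered for 100% of them. A count test (edgeR 4.0.16 in R 4.3.3, quasi-likelihood, recovered reads of tested sites, deposited library sizes, terms for IL-4, DMSO, latrunculin A and MCSF, Benjamini-Hochberg adjustment) was added as an alternative after seeing the data. With 1 library per group it rests on 1 residual degree of freedom and on the assumption that IL-4 and DMSO add up. The deposited peak lists give a fold enrichment (a ratio to local background) and a −log10 q-value made by the authors.

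Log2 ratios of signal with 0.1 added were computed with numpy 2.4.6, pandas 2.3.3 and scipy 1.17.1, and figures with matplotlib 3.10.9. Folds printed with an interval are ratios of reads over effective library size, with exact (Clopper-Pearson) 95% intervals. Medians have order-statistic intervals. A peak overlapped a site from 1 shared base on. The scripts were tested on simulated data. The table counts positions from 1, and its last site on chromosome 1 ends at 197195351, beyond the 195471971 bases of that chromosome in GRCm38, the genome at hand. No position was therefore tied to a gene, promoter or sequence, and planned gene lists and motifs are not analysed here. No column of per-sample values was left out.

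The members, lists and alternatives were chosen with earlier results of these data known. The sites named are the 8 members with the largest fall (ranked by the smaller of both falls), the 4 of highest signal, the 3 with the largest fall and the 3 with the largest rise with IL-4 (in both pairs and in 1 pair), the 2 densest groups within 100 kb, and the 3 nearest to each side of a threshold. The other runs were named after their values were seen.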

Additional observations from a re-analysis of the deposited data

Results flagged for a closer look

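At 6 members IL-4 moved the signal past 1.5-fold in opposite ways without and with vehicle (1.30% of members, against 0.917% of all tested sites). The difference between the pairs was not tested, since each has 1 library per group. At 4 of them the site was lower with IL-4 alone and higher with DMSO + IL-4 than with DMSO. The clearest of these is chr5:104606387-104607526, with log2 ratios of -0.97 and 1.66. The other 2 went the opposite way. At chr9:111111119-111112070 reads numbered 41 in Untreated and 169 in IL-4, but 160 in DMSO and 29 in DMSO + IL-4, and the log2 ratios were 2.39 and -1.96. At chr1:16076870-16077936 they were 1.58 and -1.38. The last pair of sites falls outside the rule for naming sites and was chosen after the values were seen.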

How the results depend on the processing

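Of 10 alternative counts of members, 5 stayed within 1.5 times the reported count. Of 43 alternative medians and shares, 14 stayed within the 95% interval of the reported value. The medians near members changed sign at 50 kb. The number of members, 460, became 2700 at a mean signal of at least 1.6, 126 at 6.4 or more, 59 at a fold threshold of 2 and 2519 once the trend of each ratio with mean signal was removed. Of these 2519, 459 were among the 460. The additive edgeR fit, added after seeing the data, placed 243 sites lower with both, 198 of them members. Other scales, added values and crossed controls gave 371 to 587 members, and with the controls crossed 288 of the 449 were shared. Under the removed trend the members' median log2 ratios, for the latrunculin A, MCSF, IL-4 without vehicle, DMSO and DMSO + IL-4 (against IL-4) comparisons, were -1.37, -1.30, -0.27, -0.47 and -0.13. With 0.5 added the first 2 were -0.82 and -0.74. With total reads as the scale they were -0.88 for MCSF, 0.10 for DMSO + IL-4 against DMSO, -0.29 for DMSO and -0.054 for DMSO + IL-4 against IL-4. Near members, widening 10 kb to 50 kb took the medians from -0.28 and -0.26 to 0.23 and 0.13, so the lower values hold at short distance only. Without the runs, 168 sites within 10 kb had medians of -0.07 (95% interval -0.28 to 0.05) with latrunculin A and -0.15 (-0.28 to -0.03) with MCSF. With the runs kept, the medians within 10 kb were -0.14 and -0.11 with sites of at least 1.6 in signal, and -0.33 for MCSF with total reads. Peaks of a −log10 q of at least 5 overlapped 93.3%, 92.4%, 89.3% and 89.1% of members in Untreated, IL-4, DMSO and DMSO + IL-4, 50% with latrunculin A and 54.1% with MCSF. Peaks over at least 50% of the site gave 84.3%, 74.8%, 66.5%, 63.3%, 28.9% and 27.6% in the same order. The share of members at least 1000 bp wide, 63.3%, became 26.0% at a mean signal of at least 1.6, 44.4% at 6.4 and 55.9% at a fold of 2. It became 74.6% without strong sites and runs, an alternative chosen after seeing the data, as was leaving out the runs among neighbours. The causes of these changes were not tested, beyond the fewer or more sites that a threshold lets in. The motif alternative was not run, since no genome of the same build was used. No paired analysis was possible because each group has 1 library. Depth limits the size of single falls, as the median over all members was 40 reads in each treated library.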

Other observations

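The rule covers chromosomes 1 to 19. On chromosome X, 129 of 1865 sites of the same mean signal met its other conditions (6.92%), and on chromosome Y 8 of 108 did (7.41%), against 1.37% on chromosomes 1 to 19. The 129 sites on X had median log2 ratios of -0.86 with latrunculin A and -0.82 with MCSF. They were narrower than the members, with a median width of 430 bp and 25 sites (19.4%) of at least 1000 bp. Of all 1865 sites on X, 28.6% were that wide, and their median width was 695 bp. All 1865 sites on X had medians of -0.14 and -0.18, where the sites of chromosomes 1 to 19 had 0.54 and 0.55.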
